A study of Homo sapiens with 9 samples.

Results

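Unprocessed pseudogenes are copies of genes that arose by duplication of a stretch of DNA, so they keep introns of the parent gene but have lost its reading frame. The members described here are the genes that both deposited comparison tables class as unprocessed_pseudogene, whose symbol does not begin with RN7S and whose baseMean, the mean normalised read count over the 6 libraries of a table, was above 50 in both tables. There are 51 such genes among the 2393 unprocessed pseudogenes that both tables list, which is 2.13%, and among 14581 genes of any class with baseMean above 50 in both. No unprocessed pseudogene carried an RN7S symbol. The members were chosen by the read level (baseMean) and not directly by the fold change, so levels are given as a description. Because baseMean includes the libraries of both sides of a comparison, the limit is not independent of the fold change.

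The RNA came from the human embryonic kidney line HEK293T (wildtype), crosslinked with 0.1% formaldehyde for 10 min. RNA immunoprecipitation (RIP) with an antibody against PABPN, a poly(A) binding protein found mainly in the nucleus, or PABPC, its mainly cytoplasmic counterpart, gave 3 libraries each, and 3 libraries were made from input RNA of the same total lysates. All cells of the 3 groups were crosslinked, and no RIP with an unrelated antibody is among the libraries. The question put to the duplicated genes is which of their RNAs were found with either protein more or less often than in input.

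Duplicated segments of the human genome hold many gene copies that differ by few bases from the gene they came from. Some are transcribed, often from a copied promoter or from that of a neighbour, and their RNAs can be spliced and polyadenylated although they encode no full protein. PABPN binds poly(A) tails in the nucleus soon after they are made, while PABPC binds the tails of exported mRNAs in the cytoplasm. A short read that is identical in a pseudogene and its parent cannot be assigned to either, so the sequence of each copy decides how well it can be measured.

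How close the copies are is shown first for the 3 members copied from mitochondrial DNA. MTND2P28 (chr1:629640-630683), MTCO1P12 (chr1:631074-632616) and MTATP6P1 (chr1:633696-634376) lie next to each other on the plus strand of hg38, and each is a single exon without intron in GENCODE release 44. Over 1044 aligned bases MTND2P28 differed from the mitochondrial genome at 17 positions. MTCO1P12 differed at 20 positions and 1 gap over 1543 bases, and MTATP6P1 at 10 positions over 681 bases. A stretch of 30 bases of each that holds differences is given here beside the mitochondrial stretch, 5′ to 3′ on the plus strand, with the differing bases in capitals.
MTND2P28, chr1:630639-630668: acActGctcctacctatctccccttttatG
mitochondrial DNA, chrM:5469-5498: acGctActcctacctatctccccttttatA
MTCO1P12, chr1:631383-631412: ctcttaccCccctctctcctactcctgctT
mitochondrial DNA, chrM:6213-6242: ctcttaccTccctctctcctactcctgctC
MTATP6P1, chr1:633817-633846: gactaatTaccacccaacaatgactaatcC
mitochondrial DNA, chrM:8648-8677: gactaatCaccacccaacaatgactaatcA

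BPTFP1 is shown as a copy of a nuclear coding gene. Its identity of 98.2% is above the median of 96.1% over the members aligned with a coding gene, which went down to 73.9%. It has 2 exons and is a copy from the gene BPTF, which encodes the largest subunit of the chromatin remodelling complex NURF. Its longer exon of 356 bases differed from BPTF at 7 positions, and 4 of these fall into 1 stretch of 30 bases. The sequences are written 5′ to 3′ in the sense of each gene, which is the minus strand for BPTFP1 and the plus strand for BPTF, with the differing bases in capitals.
BPTFP1, chr17:64762640-64762669: caccGaaaagAaagtgGtcatgaaaggaaG
BPTF, chr17:67893411-67893440: caccAaaaagGaagtgAtcatgaaaggaaA

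Closer still, the longest exons of NSFP1 (200 bases), SRGAP2D (222 bases) and MSTO2P (215 bases) had no difference from NSF, SRGAP2C and MSTO1. That of NAIPP4 (2112 bases) had 1 difference from NAIP and that of WASH7P (198 bases) had 3 from WASHC1. Of all stretches of 75 bases, the read length, within a member's span, between 4.99% (PKD1P1) and 99.8% (ENSG00000236796) occurred once in the hg38 chromosomes, with a median of 70.3%. In 19 members under 50% were unique and in 17 members at least 80%. Within the 3 mitochondrial copies, 333 of 970, 538 of 1469 and 170 of 607 such stretches also occur in mitochondrial DNA. Whether reads with several best positions were counted is not given in the sources used here.

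The members' spans ran from 218 to 233909 bases with a median of 21886, and exons made up 4.29% of the summed spans. Reads in exons and in introns were counted together by the authors. Only coding genes listed in both tables were kept as matches. Such a match was found for 47 of the 51 members, at a median identity of 96.1%, and in 27 the identity was at least 95%. MTND2P28 and MTCO1P12 had no such match because their mitochondrial parents are not among these genes. They aligned to mitochondrial DNA at 98.4% and 98.6% identity. A coding or long non-coding RNA (lncRNA) gene of the same strand overlaps the span of 14 members in GENCODE release 44, an annotation later than the one the authors counted with. DAP3P1 overlaps MSTO1, PKD1P1 overlaps NPIPA9, SMG1P6 overlaps BOLA2-SMG1P6, and ENSG00000213976 overlaps ZNF738, the coding gene it matched. ANKRD18CP, ENPP7P10, ENPP7P5 and ENSG00000280828 are also among the 14. Whether reads of these members were of the overlapping genes was not tested.

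The tables carry no column per library. Whole reads per library were worked out from the digits of baseMean for 11731 of the 11760 genes tried and for all 51 members. Libraries are called a, b and c within a group, letters that have no link to the replicate numbers. Estimated depth in M reads (mega, on genes) was 42.7 to 49.2 for input, 44.7 to 49.1 for PABPN RIP and 36.5 to 52.2 for PABPC RIP. Of 7 marker genes of HEK293T cells, all had baseMean of at least 150 in both tables. Of the 5 markers of other cells, PTPRC, HBB, CD3E and ALB were at 8.64 or lower in both tables, while COL1A1 stood at 455 and 320.

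Each member had reads in all 9 libraries. Means are in reads divided by size factors, with all libraries on the scale of the PABPN table. The input mean ran from 55.5 to 3682 with a median of 219, so every member was above 50 in input on that scale. The input size factors of the PABPC table are larger, at 1.0411 to 1.2196 against 0.8951 to 1.0321. By these, ENSG00000284636, with 57, 51 and 50 input reads, lay below 50 in input and passed there through the PABPC RIP. The mean was below 50 for 1 member in the PABPN RIP, with a range of 17.2 to 3052, and for 12 members in the PABPC RIP, with a range of 6.41 to 1117. Just inside the limit were MTCO1P12, with baseMean 51.1 (PABPN) and 65.2 (PABPC), and DAP3P1 with 105 and 51.3. Just outside were ENPP7P2 with 98.2 and 48.0, and AGAP14P with 106 and 46.4. They are among the 16 unprocessed pseudogenes that passed in the PABPN table only, and 1, CIBAR1P1, passed in the PABPC table only. AGAP14P had a PABPN value of 2.56 (SE 0.257) and a PABPC value of 1.34 (SE 0.310). This PABPC value was the highest among the 16. Over the 16, the median log2 fold change was 0.47 with PABPN and -2.23 with PABPC. The limit in the PABPC table thus left out mostly genes that lay below input with PABPC.

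**Figure D1:**
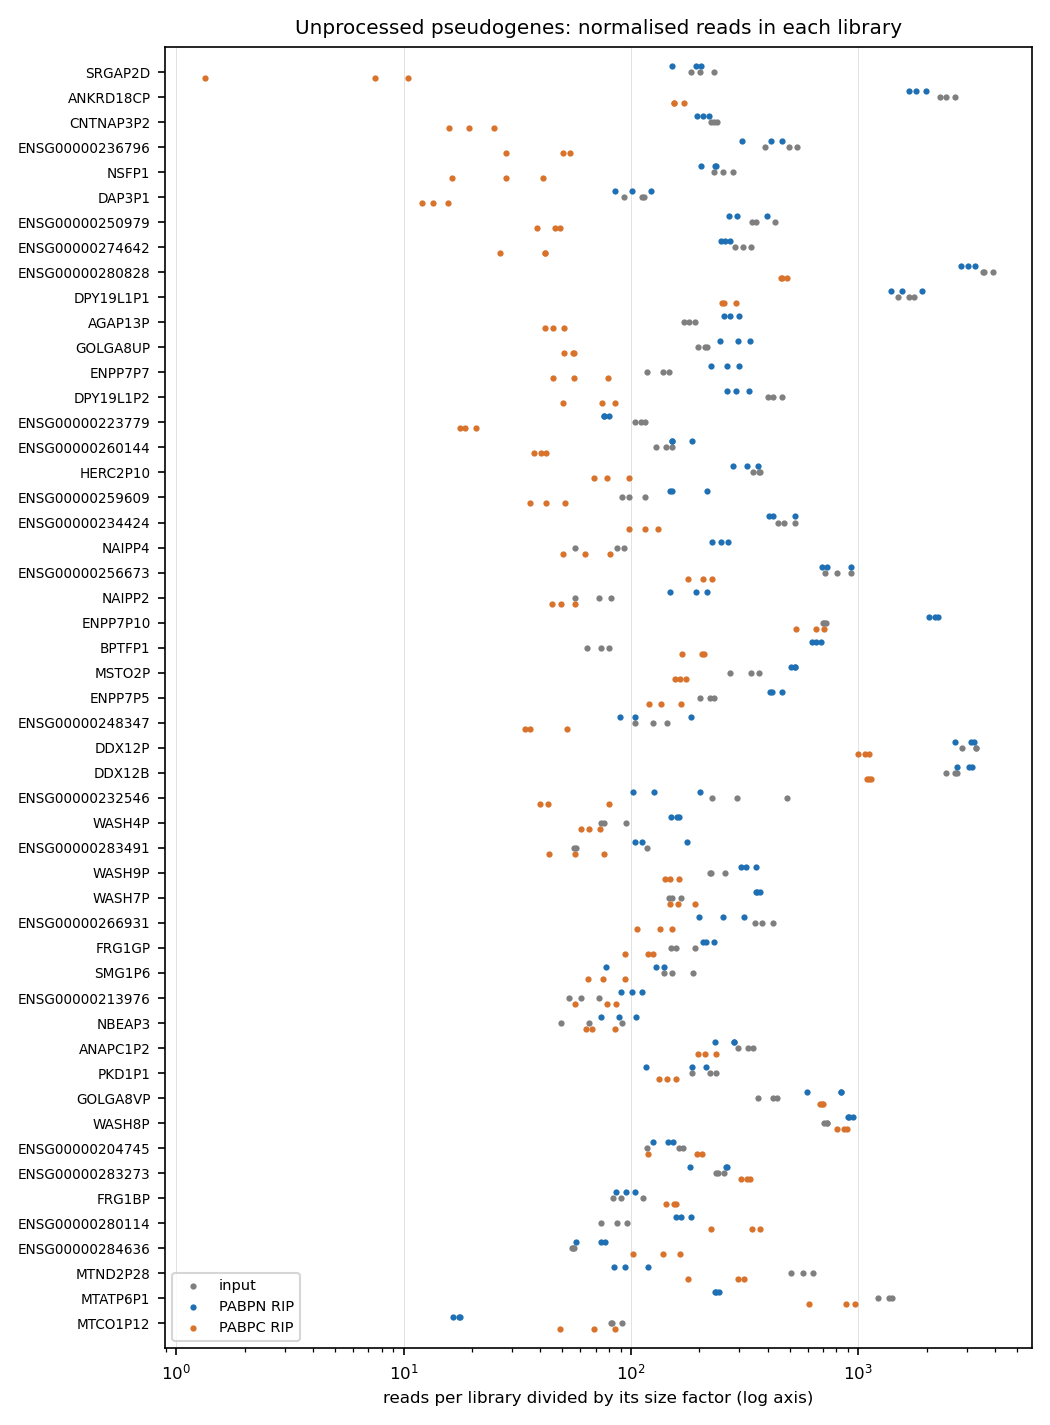
Normalised reads of the 51 unprocessed pseudogenes in each library (horizontal log axis, reads divided by the size factor), with 3 points per group for input (grey), PABPN RIP (blue) and PABPC RIP (orange), ordered by the difference between the RIPs. In SRGAP2D at the top the PABPC points lie between 1.33 and 10.4 and the input points between 183 and 233, and in MTATP6P1 near the bottom the PABPN points lie between 234 and 244, below all others.

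With PABPN, 13 members were enriched and 6 were depleted, at a log2 fold change beyond 0.5 and an adjusted p of at most 0.01 in the authors' DESeq2 fit. These are 25.5% and 11.8% of the members, while 17.0% of the 14581 genes were enriched and 15.3% depleted by the same rule. The median log2 fold change was -0.03 over the members and -0.06 over all genes. The middle 50% of the members lay between -0.26 and 0.69, and 32 members had no call. A read count from a population of cells does not tell fewer cells from less RNA per cell. In 19 members all 3 PABPN libraries lay above all 3 input libraries, and in 13 all lay below, against 34.6% and 23.1% of the 7669 genes with recovered reads.

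With PABPC, 5 members were enriched and 33 were depleted, which are 9.80% and 64.7%, while 37.6% of all genes were enriched and 32.9% depleted. The 12 members with a PABPC RIP mean below 50 are all among the 33. They passed the baseMean limit of the PABPC table through input, so their depletion is a description. Of the 5, ENSG00000284636 passed that limit through the PABPC RIP, so its enrichment is a description. The median log2 fold change was -1.12 over the members and 0.11 over all genes. The members' values ran from -4.95 (SRGAP2D) to 1.86 (ENSG00000280114). In 35 members all 3 PABPC libraries lay below all input libraries and in 7 above, against 36.9% and 45.4% of genes with recovered reads. The 2 comparisons share the input libraries and are given side by side only.

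Between the RIPs, 35 members (68.6%) were higher with PABPN and 4 (7.84%) higher with PABPC, by a two-sided normal test of the difference between the deposited fold changes, adjusted over all 14581 genes. In the background 36.1% and 33.4% of genes were called in these directions. The 12 members with a PABPC RIP mean below 50 are all among the 35, and for them this call is a description. The median difference was 1.62 over the members and 0.07 over all genes. In 38 members all PABPN libraries lay above all PABPC libraries and in 7 below, against 45.1% and 37.3% of genes with recovered reads. Set by calls, 23 members were depleted from PABPC with no call for PABPN, 5 were enriched with PABPN and depleted from PABPC, 5 were depleted from both, 3 were enriched with both and 7 had no call. A further 5 were enriched with PABPN only, 2 enriched with PABPC only and 1 depleted from PABPN only. These sets were not counted over all genes, and the calls share the input libraries, so they are a description.

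**Figure D2:**
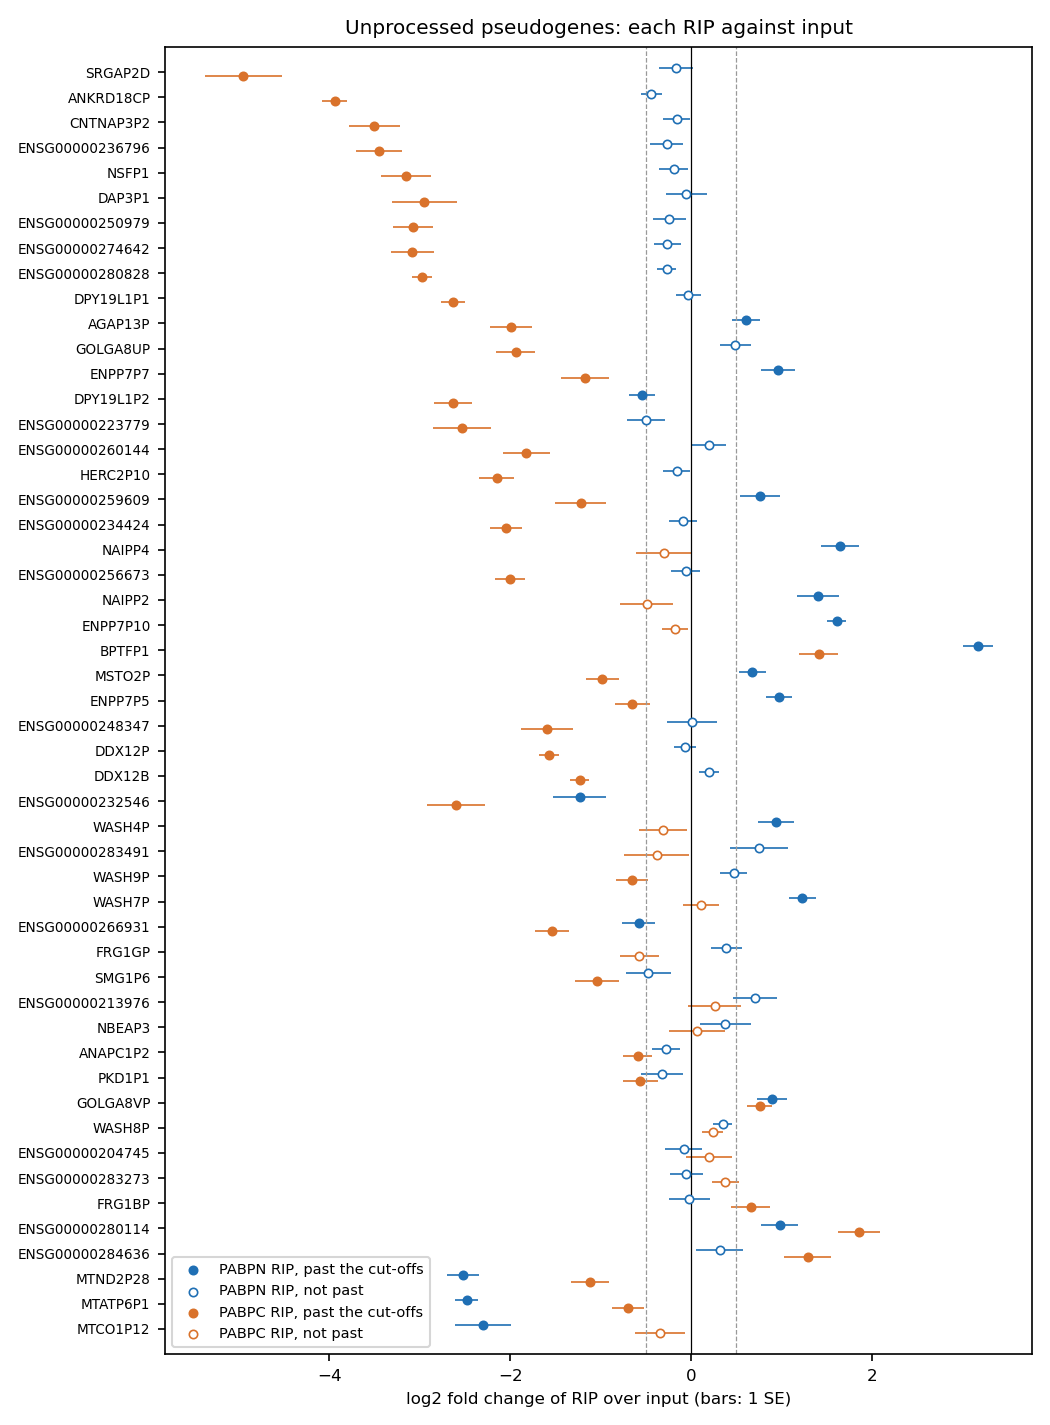
Log2 fold change of PABPN RIP (blue) and PABPC RIP (orange) over input for the 51 members, with bars of 1 standard error, filled points for members past the cut-offs and dashed lines at 0.5 and -0.5. Most PABPN points lie near 0 while 33 PABPC points are called below it, and the 3 mitochondrial copies at the bottom are the members whose PABPN value lies furthest below 0.

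The same counts in other gene classes show where unprocessed pseudogenes stood. Of 237 transcribed unprocessed pseudogenes, the class of copies with annotated transcription, 141 (59.5%) were depleted from PABPC and 74 (31.2%) enriched with PABPN. Of 1661 lncRNAs, 1023 (61.6%) were depleted from PABPC and 477 (28.7%) enriched with PABPN. Processed pseudogenes arise when a spliced mRNA is copied back into DNA, and they had the other direction, since 24 of 29 were enriched with PABPC and 17 depleted from PABPN. Of 12452 protein coding genes, 3511 (28.2%) were depleted from PABPC and 5081 (40.8%) enriched. The PABPC medians were -1.12 for the members, -0.93 for transcribed unprocessed pseudogenes, -1.26 for lncRNAs, 1.87 for processed pseudogenes and 0.24 for protein coding genes. No test between the classes was made.

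**Figure D3:**
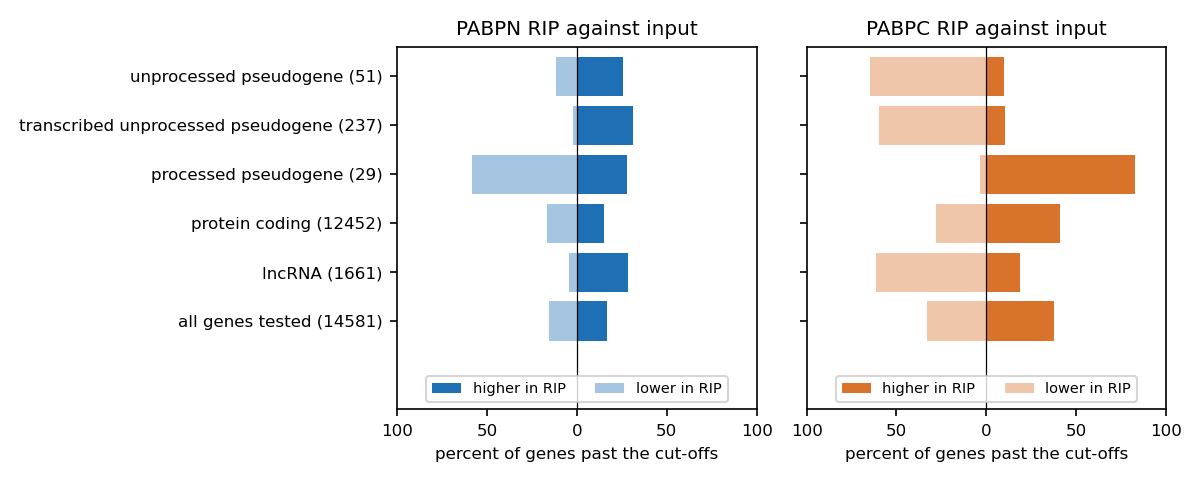
Percent of genes past the cut-offs in each gene class (numbers of genes in parentheses, baseMean above 50 in both tables), to the right of 0 for genes higher and to the left for genes lower in the RIP than in input. The 51 unprocessed pseudogenes had 64.7% lower and 9.80% higher with PABPC, and processed pseudogenes had 82.8% higher.

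The member furthest above input with PABPN was BPTFP1 (chr17:64761912-64762710, minus strand). Its normalised reads were 73.6, 64.1 and 80.4 in input, 686, 625 and 653 in the PABPN RIP and 167, 210 and 205 in the PABPC RIP. The 3 groups did not overlap, and the PABPN libraries were highest. The log2 fold change was 3.17 (SE 0.165, DESeq2 adjusted p 4.84e-80) with PABPN and 1.41 (SE 0.219, DESeq2 adjusted p 4.08e-10) with PABPC. A lncRNA that reads through several neighbouring pseudogenes, ARHGAP27P1-BPTFP1-KPNA2P3, covers this position on the same strand in GENCODE release 44, and whether the reads are of that RNA was not tested.

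The NAIPP2 and NAIPP4 copies of NAIP, a gene for an intracellular receptor of bacterial proteins in inflammasomes, were enriched with PABPN. NAIPP4 (chr5:71102898-71128753) had 93, 56.5 and 87.1 normalised reads in input, 227, 250 and 267 with PABPN and 50.1, 81.0 and 62.7 with PABPC. Its PABPN libraries lay above all others, while input and PABPC overlapped. The log2 fold changes were 1.65 (SE 0.213) for NAIPP4 and 1.40 (SE 0.233) for NAIPP2 with PABPN, and -0.30 (SE 0.307) and -0.49 (SE 0.295) with PABPC, which passed no cut-off. Unique stretches of 75 bases made up 6.78% and 6.36% of their spans, among the lowest shares of all members. NAIP itself had baseMean of 33.6 and 13.5, below the limit, and a PABPN log2 fold change of 1.65 (SE 0.363).

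All 3 ENPP7P members, named after the gene of an intestinal sphingomyelinase, were enriched with PABPN and 2 of them depleted from PABPC. ENPP7P10 (chr4:9079023-9141608) had 706, 702 and 722 normalised reads in input, 2173, 2055 and 2256 with PABPN and 532, 652 and 705 with PABPC. Its input libraries differed little, the PABPN libraries lay far above them and the PABPC libraries overlapped input. The PABPN log2 fold changes were 1.61 (SE 0.104) for ENPP7P10, 0.97 (SE 0.145) for ENPP7P5 and 0.96 (SE 0.185) for ENPP7P7. With PABPC they were -0.18 (SE 0.142), -0.65 (SE 0.195) and -1.17 (SE 0.264). The PABPN call of ENPP7P7 was lost in the limma fit without input library c (0.87), PABPN library b (0.86) or PABPN library c (0.95). The coding gene ENPP7 had baseMean of 1.34 and 0.608, too low for a comparison, and aligned with these copies over 134 to 151 bases only.

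The 4 WASH members lie near chromosome ends and are copies of WASHC1, which encodes a subunit of the complex that promotes actin branching on endosomes. WASH7P (chr1:14404-29570) had 147, 151 and 166 normalised reads in input, 357, 360 and 371 with PABPN and 161, 191 and 148 with PABPC. WASH7P (log2 fold change 1.23, SE 0.151) and WASH4P (0.94, SE 0.203) were enriched with PABPN, while WASH9P (0.47, SE 0.152) and WASH8P (0.35, SE 0.107) were short of the cut-off. Limma called WASH9P without input library a (0.54). With PABPC only WASH9P was called among them, as depleted (-0.65, SE 0.180), and the 4 values ran up to 0.24 (SE 0.116) for WASH8P. WASH8P was the most abundant in input, at 733, 730 and 711 normalised reads. Between 6.69% and 30% of their spans were unique at 75 bases.

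The pair of GOLGA8 members, copies of genes for Golgi proteins of the golgin family, differed from each other with PABPC. GOLGA8VP (chr15:101771758-101781989) had 363, 438 and 420 normalised reads in input, 842, 595 and 841 with PABPN and 700, 681 and 690 with PABPC. Both RIPs lay above input, with log2 fold changes of 0.90 (SE 0.167) and 0.76 (SE 0.136), and both calls were enrichment. GOLGA8UP (chr15:30791573-30801859) had 197, 217 and 211 in input, 297, 247 and 333 with PABPN and 56.3, 55.8 and 50.8 with PABPC. Its PABPC value was -1.94 (SE 0.220), a depletion, and its PABPN value of 0.49 (SE 0.168) passed no cut-off, although limma called it without PABPN library b (0.60).

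The FRG1 copies had no PABPN call and differed from each other in direction with PABPC. FRG1BP (chr20:30377372-30399257) had 113, 90.1 and 83.8 normalised reads in input, 85.8, 104 and 95 with PABPN and 158, 142 and 154 with PABPC. It was enriched with PABPC at 0.66 (SE 0.217, DESeq2 adjusted p 0.00469), a call that a limma fit lost when input library b, input library c or PABPC library c was left out (0.63, 0.58 and 0.65). FRG1GP had a PABPN value of 0.39 (SE 0.174) and a PABPC value of -0.57 (SE 0.219), without a call in the deposited tables, while limma called the second as depleted (-0.56), a call that was lost with 6 of the 9 libraries left out in turn.

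The mitochondrial copies were lower with PABPN than any other member. MTATP6P1, a copy of the gene for subunit a of ATP synthase, had 1221, 1402 and 1363 normalised reads in input, 237, 244 and 234 with PABPN and 606, 967 and 882 with PABPC. The 3 groups did not overlap. Its log2 fold change fell by 2.48 (SE 0.125) with PABPN and by 0.70 (SE 0.176) with PABPC. MTND2P28, from the gene of a complex I subunit, had 507, 571 and 630 in input, 119, 94.3 and 84.3 with PABPN and 179, 297 and 314 with PABPC, giving -2.52 (SE 0.177) and -1.12 (SE 0.211). MTCO1P12, from the gene of the largest cytochrome c oxidase subunit, had 91.1, 81.4 and 82.7 in input, 17.7, 17.5 and 16.5 with PABPN and 49.0, 85.0 and 68.7 with PABPC. It was depleted from PABPN at -2.30 (SE 0.311), and its PABPC value of -0.34 (SE 0.279) passed no cut-off. MTCO1P12 passed the baseMean limit of the PABPN table through input, so its depletion there is a description.

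These copies also were 3 of the 4 members called higher with PABPC than with PABPN, with PABPN minus PABPC differences of -1.40 (error 0.275) for MTND2P28, -1.78 (error 0.215) for MTATP6P1 and -1.96 (error 0.418) for MTCO1P12. The fourth was ENSG00000280114 at -0.88 (error 0.310). The 8 mitochondrially encoded genes with baseMean above 50 were all depleted from PABPN, with a median of -1.77, and all called higher with PABPC than with PABPN. Whether reads counted on the nuclear copies were of mitochondrial RNA was not tested.

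The members lowest with PABPC were led by SRGAP2D (chr1:143975087-144068350), a partial duplicate of the SRGAP2 family of regulators of neuronal shape. It had 183, 202 and 233 normalised reads in input, 151, 203 and 194 with PABPN and 10.4, 1.33 and 7.47 with PABPC. The PABPC libraries held 10, 1 and 5 reads, against 171 to 209 reads with PABPN. The log2 fold change was -4.95 (SE 0.429) with PABPC and -0.17 (SE 0.187) with PABPN, and the difference between the RIPs of 4.78 (error 0.468) was the largest among the members. Its span was unique in 12.0% of 75-base stretches. SRGAP2D, and CNTNAP3P2, NSFP1 and DAP3P1 below, passed the baseMean limit of the PABPC table through input. Their PABPC depletion is a description.

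ANKRD18CP (chr9:97156570-97221235), a copy from a family of ankyrin repeat genes, combined a deep PABPC depletion with high counts. Its normalised reads were 2666, 2287 and 2440 in input, 1680, 1986 and 1802 with PABPN and 154, 155 and 172 with PABPC. The log2 fold change was -3.94 (SE 0.137) with PABPC and -0.44 (SE 0.116) with PABPN, the latter short of the cut-off although all PABPN libraries lay below input. CNTNAP3P2, from a gene of the contactin-associated protein family, had 226, 231 and 239 in input, 207, 220 and 196 with PABPN and 25, 15.9 and 19.4 with PABPC. NSFP1, a partial copy of the gene for the ATPase that takes SNARE complexes apart, had 233, 255 and 282 in input, 203, 235 and 236 with PABPN and 28.2, 41.2 and 16.4 with PABPC. Both were within the range of input with PABPN or slightly below it, and lay far below input with PABPC, at -3.50 (SE 0.282) and -3.15 (SE 0.277).

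DAP3P1 and both DPY19L1 copies followed among the members with a symbol. DAP3P1 (chr1:155586644-155602197), from the gene of a mitochondrial ribosomal protein, had 114, 93.4 and 112 normalised reads in input, 84.9, 123 and 101 with PABPN and 15.6, 12.0 and 13.4 with PABPC. Its PABPC value was -2.95 (SE 0.358), and its PABPN value of -0.05 (SE 0.226) passed no cut-off. DPY19L1P1 and DPY19L1P2 lie near each other on opposite strands of chromosome 7 and are copies of the gene for a C-mannosyltransferase. Both stood at -2.63 with PABPC (SE 0.134 and 0.212). With PABPN DPY19L1P2 was depleted at -0.54 (SE 0.147), a call that was lost in limma with a pseudocount and after centring on the median of all genes (-0.49) and kept in limma voom (-0.54), and DPY19L1P1 was at -0.03 (SE 0.141).

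The members with the most reads were copies of DDX11, the gene of a helicase for sister chromatid cohesion, and the unnamed ENSG00000280828, nearest to the kinase gene TLK2. DDX12P had 3297, 2865 and 3313 normalised reads in input, 3239, 2668 and 3140 with PABPN and 998, 1076 and 1111 with PABPC. ENSG00000111788, named DDX12B in GENCODE release 44, had a PABPC log2 fold change of -1.23 (SE 0.106) and DDX12P one of -1.57 (SE 0.115). ENSG00000280828 was at -2.97 (SE 0.110) with PABPC, and its PABPC libraries at 488, 457 and 464 lay far below the input libraries at 3905, 3561 and 3580. With PABPN these 3 members had values between -0.27 and 0.20 and no call.

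Opposite calls in the 2 RIPs, which share the input libraries, were made for 5 members, enriched with PABPN and depleted from PABPC. The share of such genes among all genes was not counted, so this is a description. ENPP7P5 and ENPP7P7 are given above. AGAP13P (chr10:46816516-46837947), from a family of GTPase activating proteins for ARF, had 172, 181 and 191 normalised reads in input, 257, 300 and 274 with PABPN and 41.7, 45.2 and 50.8 with PABPC. Its log2 fold changes were 0.61 (SE 0.158) and -1.99 (SE 0.237), and the first call was lost in the limma fit when any 1 of the 6 input and PABPN libraries was left out. MSTO2P (chr1:155745829-155750137), from a gene for mitochondrial distribution, had 272, 366 and 339 in input, 527, 526 and 508 with PABPN and 156, 165 and 175 with PABPC, giving 0.68 (SE 0.148) and -0.98 (SE 0.185). The fifth was ENSG00000259609, nearest to SAXO2, at 0.76 (SE 0.222) and -1.22 (SE 0.280). Its PABPN call was lost in limma with a pseudocount of 0.5 or 5 and kept in limma voom, which weights each value by its precision.

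Of the members enriched with PABPC, BPTFP1 and GOLGA8VP were also enriched with PABPN, as was ENSG00000280114. The last had 73.6, 96.6 and 87.1 normalised reads in input, 158, 183 and 166 with PABPN and 226, 341 and 369 with PABPC, and aligned best with PDE4DIP, a gene for a protein of the centrosome and Golgi. Its log2 fold changes were 0.98 (SE 0.202) and 1.86 (SE 0.235). The other copy aligned with PDE4DIP, ENSG00000274642, went the other way with PABPC, at -3.08 (SE 0.237). FRG1BP and ENSG00000284636 (1.29, SE 0.262) had a PABPC call only. The latter passed the baseMean limit of the PABPC table through that RIP, so its enrichment there is a description.

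In some members the libraries of a group lay apart. ENSG00000232546, depleted from both RIPs (PABPN -1.23, SE 0.294, and PABPC -2.60, SE 0.323), had 484, 228 and 292 normalised reads in input, 102, 201 and 126 with PABPN and 80.3, 39.8 and 43.3 with PABPC. The PABPN call was lost in limma with a pseudocount of 0.5 or 5 and kept in limma voom. ENSG00000283491 had 118, 57.5 and 55.9 in input and 112, 176 and 104 with PABPN, and its PABPN value of 0.75 (SE 0.321) passed the cut-offs only without input library a, at 1.16 in the limma fit.

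The coding paralog was compared where the symbol names one, which gave 12 pairs with 11 coding genes of baseMean above 50 in both tables. The comparison asks whether a copy and its parent were found with the proteins to the same degree. Differences are member minus paralog in log2 fold change, with a 95% normal interval from both standard errors and no test over the pairs. With PABPC the interval lay below 0 in 9 pairs and above 0 in 3, and the median difference was -1.14. With PABPN it lay below 0 in 3, above in 3 and held 0 in 6. The members had fewer input reads than the paralog in every pair, from 0.454% (BPTFP1) to 47.0% (DPY19L1P1), without correction for length or for the unique share of the sequence.

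**Figure D4:**
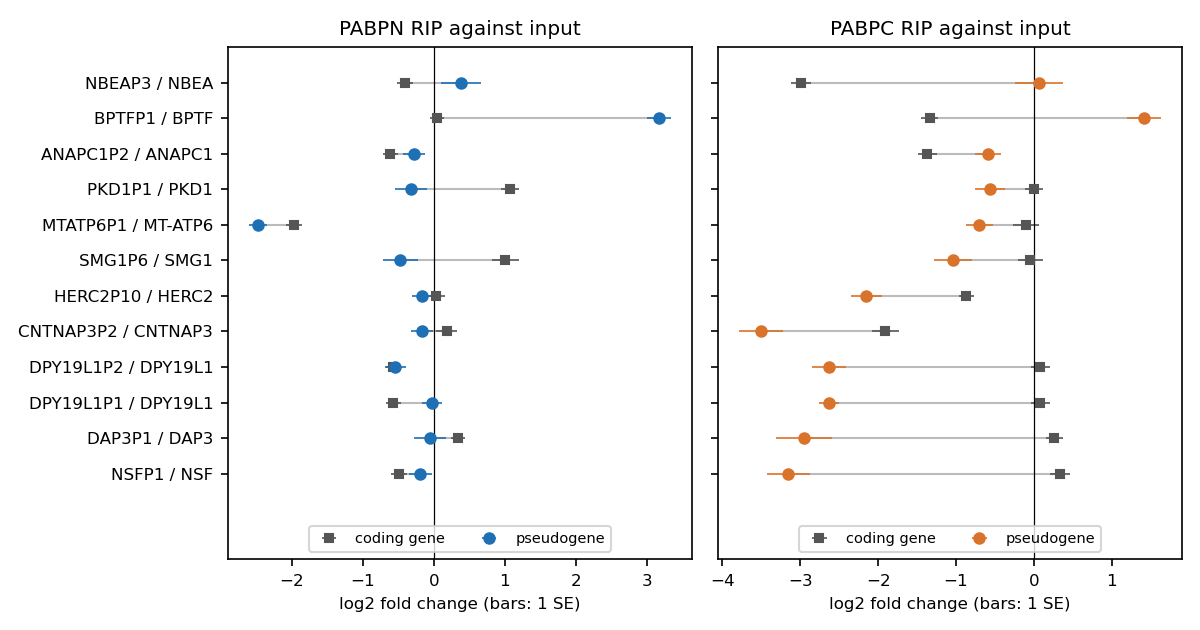
Log2 fold change over input of 12 unprocessed pseudogenes (circles) and of the coding gene that the symbol names (grey squares), with bars of 1 standard error, for PABPN RIP on the left and PABPC RIP on the right. With PABPC, NSFP1, DAP3P1 and the DPY19L1 copies lie near -3 while their parents lie near 0, and BPTFP1 and NBEAP3 lie above their parents.

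The largest gaps below 0 with PABPC were in pairs whose parent had no PABPC call. NSF stood at 0.33 (SE 0.126) and NSFP1 differed from it by -3.48 (interval -4.08 to -2.89). DAP3 stood at 0.26 (SE 0.110) and DAP3P1 differed by -3.21 (interval -3.94 to -2.48). DPY19L1 stood at 0.08 (SE 0.124), and DPY19L1P1 and DPY19L1P2 both differed by -2.71 (intervals -3.07 to -2.35 and -3.19 to -2.23). In these 4 pairs the copy was depleted and the parent had no call. With PABPN the same pairs differed by 0.30 (interval -0.09 to 0.68), -0.39 (interval -0.88 to 0.09), 0.54 (interval 0.20 to 0.89) and 0.04 (interval -0.32 to 0.39). Of 75-base stretches, 10.8% of the span of NSFP1 and 8.93% within its exons were unique, so its gap is poorly determined. The spans of the other copies were 80.9% to 89.4% unique. The best alignment of DPY19L1P1 with DPY19L1 covered 910 bases, while its exons hold 2594. NSFP1 and DAP3P1 passed the PABPC limit through input.

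In the 3 pairs with the opposite direction the parent was depleted from PABPC. NBEA, the gene of neurobeachin, stood at -2.99 (SE 0.133) and NBEAP3 at 0.07 (SE 0.308), a difference of 3.06 (interval 2.40 to 3.72). Of the 1123 stretches of 75 bases within the exons of NBEAP3, 0 were unique, and over its span 12.1% were. Its best alignment with NBEA covered 461 bases, while its exons hold 1493, so this gap is poorly determined. BPTF stood at -1.34 (SE 0.109) and BPTFP1 at 1.41, a difference of 2.75 (interval 2.27 to 3.23) with opposite calls. ANAPC1, the gene of the largest subunit of the anaphase-promoting complex, stood at -1.37 (SE 0.123) and ANAPC1P2 at -0.59 (SE 0.164), a difference of 0.78 (interval 0.38 to 1.18). With PABPN BPTFP1 exceeded BPTF by 3.13 (interval 2.75 to 3.51).

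With PABPN the widest gaps below 0 were those of SMG1P6 and PKD1P1. SMG1, the gene of the kinase that starts nonsense-mediated decay, was enriched at 1.01 (SE 0.193), and SMG1P6 stood at -0.47 (SE 0.244), a difference of -1.48 (interval -2.09 to -0.87). PKD1, the gene of polycystin-1, was enriched at 1.07 (SE 0.126), and PKD1P1 at -0.32 (SE 0.229) gave a difference of -1.39 (interval -1.90 to -0.88). PKD1P1 had the lowest share of unique stretches of all members, and its PABPC depletion of -0.56 (SE 0.191) was not called by limma. MT-ATP6 and MTATP6P1 were both depleted from PABPN, at -1.97 (SE 0.113) and -2.48, a difference of -0.51 (interval -0.84 to -0.18). The parents of MTND2P28 and MTCO1P12 were not analysed here. HERC2P10, from the gene of an E3 ubiquitin ligase, differed from HERC2 with PABPC by -1.28 (interval -1.70 to -0.85). CNTNAP3P2 differed from CNTNAP3, the gene its symbol names, by -1.59 (interval -2.24 to -0.95). By sequence its nearest coding gene was CNTNAP3B, at 99.3% identity over 3861 bases.

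A further 22 members were paired with 16 coding genes by sequence, at 90% identity or more over at least 50% of their exons, a match added after the values had been seen. With PABPC the interval of the difference lay below 0 in 14 pairs, above 0 in 4 and held 0 in 4. With PABPN it lay below 0 in 6, above 0 in 4 and held 0 in 12. The largest PABPC difference of either sign was that of ENSG00000274642 from PDE4DIP, at -3.48 (interval -4.03 to -2.93). The largest above 0 was that of ENSG00000283273 from TASP1, the gene of a protease, at 3.42 (interval 3.05 to 3.79). TASP1 was depleted at -3.04 (SE 0.113) and the copy stood at 0.38 (SE 0.152) without a call. This match rests on 137 exonic bases in 2 exons, neither long enough for a stretch of 75 bases, within a span of 3386 bases. The others above 0 were ENSG00000284636 with RBFOX1 (1.84), ENSG00000204745 with ANAPC1 (1.57) and ENSG00000280114 with PDE4DIP (1.46). ENSG00000284636 passed the baseMean limit of the PABPC table through that RIP, and ENSG00000274642 and SRGAP2D through input. Their gaps are a description. The 4 WASH copies lay below WASHC1, which was enriched with PABPC at 0.68 (SE 0.140), by between -0.43 (WASH8P) and -1.33 (WASH9P). MSTO2P lay below MSTO1, which was enriched at 1.07 (SE 0.160), by -2.05 (interval -2.53 to -1.57), although the longest exon of the copy is identical to the parent's. SRGAP2D lay below SRGAP2C by -2.82 (interval -3.69 to -1.95) and ANKRD18CP below ANKRD18B by -3.03 (interval -3.42 to -2.64).

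Other features of the members were set beside the fold changes as a description over 51 genes, which share libraries and in part sequence. The Spearman correlation of the span with the PABPC log2 fold change was -0.53 and with the PABPN log2 fold change -0.07. For the deposited exonic length it was -0.03 and 0.04, and for the unique share of the span -0.10 and 0.01. For the input mean it was -0.48 with PABPC and -0.46 with PABPN, and the input mean is also the divisor of both fold changes. In the 19 members under 50% unique, 12 were depleted from PABPC and none enriched, with a median of -0.65. In the 15 members from 50% to under 80%, 8 were depleted and 3 enriched, also with a median of -0.65. In the 17 members of at least 80%, 13 were depleted and 2 enriched, with a median of -2.15.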

How the data were processed

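Groups and counts of libraries (3 input, 3 PABPN RIP, 3 PABPC RIP) were taken from the sample titles. Libraries were ribodepleted, stranded and sequenced as single reads of 75 nt. Per the labels and the methods, the authors aligned reads to hg38 with STAR, counted exonic and intronic reads per gene with featureCounts 2.0.2 on a GENCODE annotation (older than release 44, used here for positions) with overlapping stretches removed, removed genes with transcription running in from upstream, and compared each RIP with input in DESeq2. The 2 deposited tables hold a signal column, baseMean, the mean over 6 libraries of counts divided by size factors. The deposited log2 fold change and its standard error were made by the authors in DESeq2. The deposited Wald statistic is a score, the authors' fold change divided by its error. The deposited p-value columns hold the authors' raw and Benjamini-Hochberg adjusted p. The fold changes, errors and adjusted p used here are the authors' own comparison columns, because the tables hold no others. Of 123 repeated rows in each table the first was kept.

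The members and the lists of other genes were chosen with earlier results of these data known. Named members are, in each of the 3 comparisons, the 6 highest and 6 lowest called members with a symbol, every member with a coding paralog, the 2 genes nearest the baseMean limit on each side, and families of 3 or more in counts. The smaller families were added after the values were seen. Members without a symbol and those singled out for their values were named after the values were seen.

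Calls used a log2 fold change beyond 0.5 with adjusted p of at most 0.01 and baseMean above 50. The difference between the RIPs was tested with the root of the summed squared standard errors, which counts the shared input error in full, and Benjamini-Hochberg adjustment over 14581 genes. In a table of 6 libraries a gene with 1 read gives the size factor of its library. The 3 libraries whose single-read genes were shared between the tables (1308 genes in sum) were taken as input. Whole reads were then solved from both baseMean values, near the group means that the deposited fold changes give, and kept only where a refit of them returned both deposited log2 fold changes within 1e-05 and no other solution did. Tested on simulated data, all 400 sets of reads were recovered, 0 of them wrongly, and of 400 decoys 0 were accepted. Genes with baseMean above 2000 were not tried unless members. As an alternative, limma 3.58.1 in R was fitted to the values log2(reads / size factor + 0.5) of the 7669 recovered genes with baseMean above 50 in both tables, also with a pseudocount of 5 and with voom weights. Libraries were left out in the fit with 0.5. On simulated data for PABPN RIP against input over 7669 genes it called 199 of 200 changed genes and 2 others. PABPC size factors were put on the scale of the PABPN table through the input libraries. Unique stretches were counted on both strands of the hg38 chromosomes, and coding paralogs by sequence were found with blastn 2.17.0. Counting limits precision most where a group holds few reads, as for SRGAP2D with PABPC. P-values measure the spread between 3 biological replicates per group.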

Additional observations from a re-analysis of the deposited data

Results flagged for a closer look

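The members called enriched with PABPN and depleted from PABPC, which share the input libraries, had PABPN minus PABPC differences in log2 fold change of 1.62 for ENPP7P5, 1.66 for MSTO2P, 1.98 for ENSG00000259609, 2.13 for ENPP7P7 and 2.60 for AGAP13P. They were picked for opposite calls, so the size of these differences is a description and no test of it is given. The PABPN call of ENSG00000259609 was lost in limma with a pseudocount and kept in limma voom. Those of AGAP13P and ENPP7P7 were lost in limma when certain single libraries were left out. No group had more than 3 libraries, so single libraries were not tested as outliers.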

How the results depend on the processing

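No paired analysis was possible because the tables hold no column per sample and the recovered libraries carry no replicate number. The median of the members with PABPN was -0.03 and stayed between -0.08 and 0.01 under the other limits and after centring, and so took both signs. With PABPC it was -1.12, and -1.38 with baseMean above 200. The median of all genes in the PABPC table was 0.14, which centring removes. Of the counts, 13 members enriched with PABPN became 5 at a log2 cut-off of 1, 3 with baseMean above 200 (18 members) and 24 with baseMean above 10 (123 members). The 6 depleted from PABPN became 12 with baseMean above 10 and 3 in the limma fits with a pseudocount of 0.5 or 5, where ENSG00000232546, ENSG00000266931 and DPY19L1P2 were lost and the mitochondrial copies were called, while limma voom called 5 and lost ENSG00000266931 alone. The 5 enriched with PABPC became 3 at a cut-off of 1, 1 with baseMean above 200 and 10 with baseMean above 10, and the 33 depleted became 14 and 69 at these limits. Between the RIPs, 35 and 4 became 12 and 2 with baseMean above 200. Fewer or more genes enter at those limits by construction. Leaving out 1 library at a time in limma gave 10 to 13 enriched and 3 to 5 depleted with PABPN, 4 to 5 and 31 to 34 with PABPC, and 34 to 36 and 5 to 6 between the RIPs. No named member changed direction with a call. The other alternatives for these counts, medians and paralog differences, 112 in all, stayed within 1.5 times or within their error. Some of these could change little or nothing. Every parent exceeded a baseMean of 200 (lowest CNTNAP3, at 656 and 332), so that limit repeated the main paralog differences. Leaving out a library of one RIP does not change the fold change of the other RIP against input. Without input library c limma lost the PABPC call of SMG1P6 (-0.92). Only CNTNAP3 among the 11 parents had recovered reads, and its limma differences were -0.35 and -1.61. Depth limits the PABPC values of members with few reads there.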
